A study of Rattus norvegicus with 20 samples.

Results

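The proteasome subunits and the ubiquitin conjugating enzymes of rat liver were followed through graded food restriction. Members were all genes whose symbol starts with Psma, Psmb, Psmc, Psmd, Psme or Ube2, taken from probe sets annotated to 1 gene, without the immunoproteasome subunits Psmb8, Psmb9 and Psmb10. This gave 62 genes on 77 probe sets, out of 10411 genes named in the same way. Of these, 33 were proteasome subunits or activators, 27 were Ube2 enzymes, and Psmc3ip and Psme3ip1 encode proteins named after a subunit that they bind. Psmd5, Psmd9 and Psmd10, which are assembly chaperones, were counted with the subunits. Another 11 probe sets with such a symbol list several genes and were not used here. The 20 arrays measured RNA from the liver of male Wistar rats that ate freely chosen amounts as controls or received 5, 10, 20 or 30% less food for 1 week or 1 month. Every group was fasted for 16 h before sampling. The age label is 6 weeks for the 1 week arrays and 9 weeks for the 1 month arrays. RNA of 5 rats was combined into 1 pool for each of the 10 conditions, and each pool was run on 2 arrays.

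The proteasome degrades proteins that carry ubiquitin chains. Its 20S core is a barrel of alpha and beta rings, with the cutting sites on beta subunits inside, and the 19S particle on the barrel's end recognises, unfolds and feeds in the substrate. Ubiquitin passes from an activating enzyme (E1) to a conjugating enzyme (E2, mostly the Ube2 genes) and, with a ligase (E3), to the target. In liver this route works beside autophagy in the turnover of cell protein, which changes with food supply.

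Each pool is the mean of its 2 arrays, and levels are given as log2 of the normalized signal. Of the 77 member probe sets, 73 (60 genes) were bright enough to be tested, among 9520 tested in all. Those left out were the only probe sets of Ube2d2b and Ube2t and 1 each of Ube2b and Ube2e3. Arrays of one pool differed by a median SD of 0.105 for members and 0.147 for all tested probe sets. All 9 hepatocyte markers, among them the albumin gene Alb, were measured, with a summed normalized signal of 40000 to 40200 units in control pools and 38400 to 40500 in restricted pools, and 0 of 9 passed the limma test in either the dose trend or the restriction step (adjusted p over all probe sets). The summed signal of 4 endothelial markers was 196 to 237 in control and 254 to 329 in restricted pools, and theirs was the one list with calls, 1 of 4 in the dose trend and 1 of 4 in the step (Kdr and Ehd3). That of 4 bile duct markers was 66.5 to 77 and 42.8 to 59.9, with Krt19, Krt7 and Spp1 under the signal filter. For lymphocytes 7 of 8 markers lay under the filter, with sums of 74.5 to 87 and 62.3 to 89.7. Macrophage markers (5 measured) summed to 347 to 507 and 330 to 475, stellate cell markers (8) to 470 to 620 and 451 to 707, and red blood cell markers (2) to 1170 to 2110 and 997 to 1870. The part of these cell types in the member values was not tested. In liver tissue, fewer cells of a type and less RNA per cell cannot be told apart.

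In the dose trend 1 of 36 probe sets of subunits and activators and 1 of 35 of Ube2 enzymes passed (limma, adjusted p), both lower. These shares were near those of all probe sets, of which 1.96% fell and 1.8% rose. They were Psma1, an alpha ring subunit of the 20S core, and Ube2n, a conjugating enzyme known for chains that serve in signalling and repair. Their signals fell with the percentage of restriction in a fit of both durations together, and neither passed in either duration alone. Psmd9, an assembly chaperone of the 19S base, was lower in the mean of the restricted pools than in control pools, whereas Ube2d1 and Ube2q2, conjugating enzymes, were higher there. The changes were small, between 1.42-fold and 1.57-fold for 4 of these genes. For Ube2d1, whose control pools were under the lowest mean signal tested, the rise was at least 1.93-fold at the called probe set. Its second probe set did not pass, and was 1.37-fold higher with pools under that signal raised to it.

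In the dose trend, a fit of the log2 signal on percent restriction with duration as a covariate, 2 of the 73 member probe sets fell and 0 rose (limma, adjusted p over all probe sets). Over all probe sets 1.96% fell and 1.8% rose, so the members' shares were not far from the background. At an unadjusted p under 0.05 the members counted 22 (30.1%), 18 of them lower (24.7%), where 19% of all probe sets had such a p and 9.57% were lower. The median member slope was -0.079 on the log2 scale over 30 percentage points, against 0.0034 for all probe sets. Of 13 probe sets for 20S subunits 13 had a slope below 0, at a median of -0.12, and of 18 for 19S subunits 13 did, at a median of -0.15. Of 35 for Ube2 enzymes 17 did, at a median of 0.012, and over all probe sets 49.4% did. The 18 for 19S subunits include the assembly chaperones Psmd5, Psmd9 and Psmd10, with slopes of -0.076, -0.56 and 0.17. The 95% interval of the slope lay within 1 log2 unit of 0 for 36 of 36 probe sets of subunits and activators. It did so for 29 of 35 of Ube2 enzymes and for 7603 of all 9520. Within 0.5 lay 26, 17 and 3221. These intervals rest on departures of the pools from the fit and do not cover the spread between rats.

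The placing of the arrays on one scale matters for these small shifts. With the signals as deposited the median of all probe sets itself rose to 0.11 in the dose trend and 0.25 in the restriction step, and only 9 and 4 of the 13 20S probe sets then had values below 0. Relative to the median of all probe sets, all 13 lay lower in both comparisons under quantile normalization and with the signals as deposited. The median 20S slope minus that median was -0.13 and -0.17 log2 units under these scalings. Median centring shifts all probe sets of an array by the same amount. Its values relative to that median therefore equal those of the deposited signals, and it is no separate check. The 20S and 19S subunits are thus described here relative to the other transcripts on the array.

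**Figure D1:**
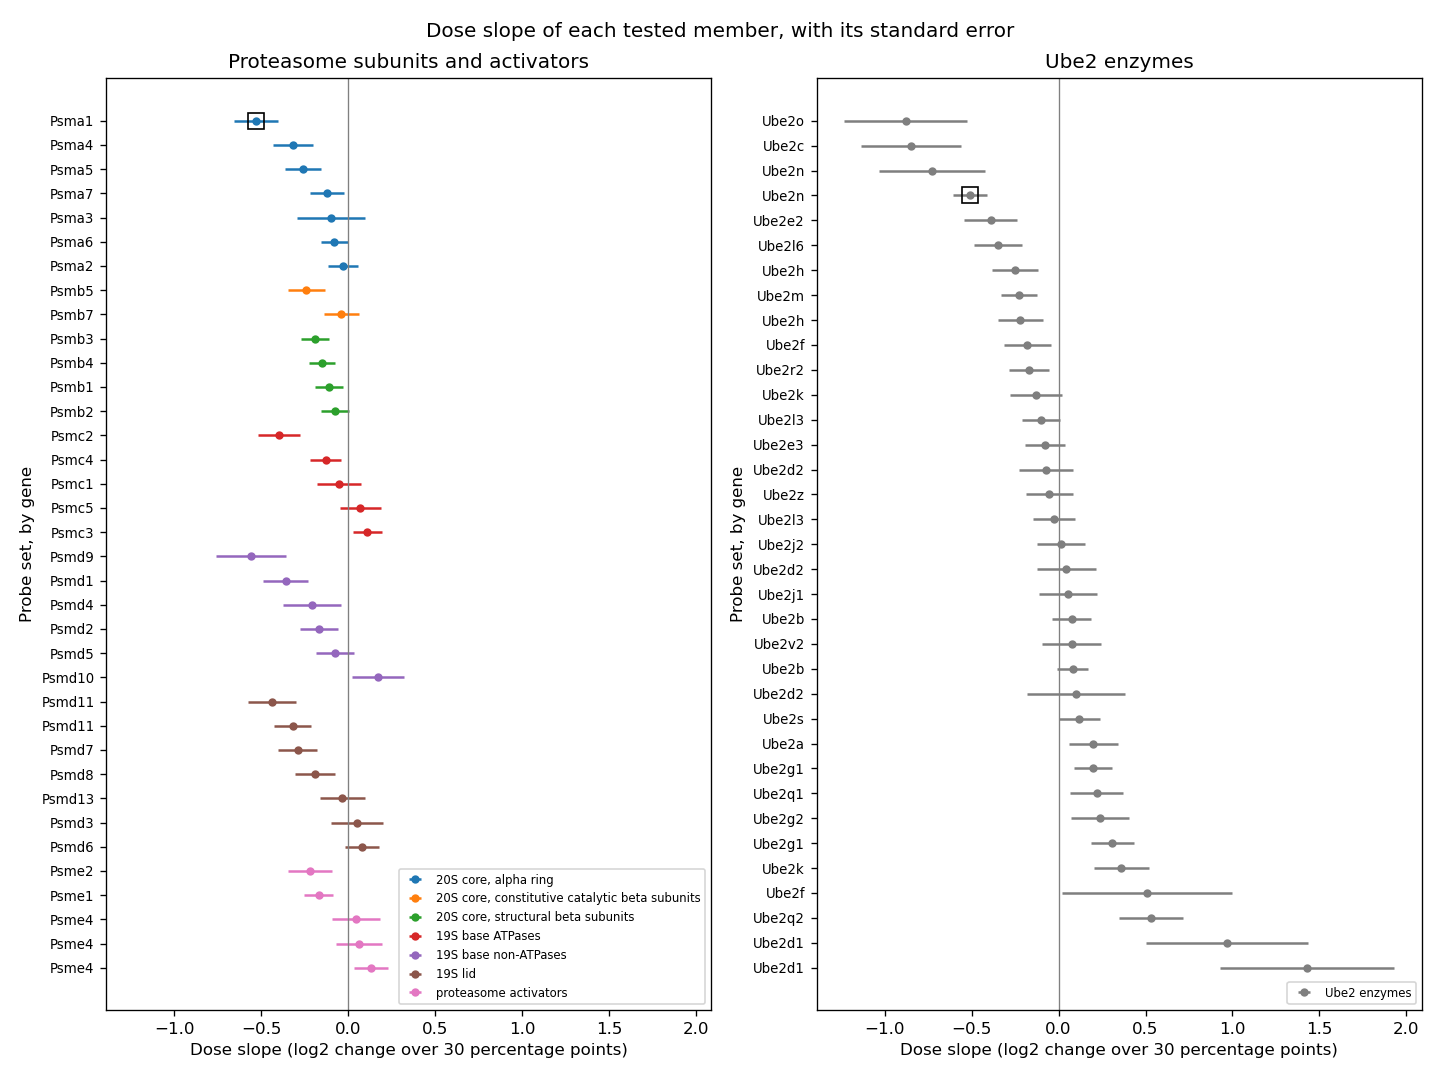
Dose slope of each tested probe set (log2 change over 30 percentage points of restriction, horizontal axis, with bars of 1 standard error from the limma fit over 10 pools), with subunits and activators on the left by their place in the particle and Ube2 enzymes on the right. Black squares mark Psma1 and Ube2n, the probe sets with an adjusted p under 0.05. All 13 slopes of the 20S core lie left of 0, while Ube2 slopes run from -0.88 to 1.43.

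Psma1 had the steepest slope of the 20S core. Its normalized log2 signals were 7.82, 7.61, 7.75, 7.51 and 7.16 at 0, 5, 10, 20 and 30% restriction for 1 week, and 7.83, 7.31, 7.41, 7.27 and 7.21 for 1 month. The control pools were the highest of their durations, and every 1 month restricted pool lay under every 1 week pool other than the one at 30%. The slope was -0.53 ± 0.127 (SE, n = 10 pools), a 1.45-fold lower signal over 30 percentage points (limma adjusted p = 0.0412). The separate slopes were -0.6 ± 0.185 at 1 week and -0.47 ± 0.185 at 1 month, and neither passed (limma adjusted p = 0.148 and 0.401). At 1 month the drop was present at 5%, and the restricted pools lay between 7.21 and 7.41. In the restriction step its difference was -0.42 ± 0.131 without passing (adjusted p = 0.0901). The dose call was lost on leaving out any 1 of 7 pools, the controls of either duration, the 5, 10, 20 and 30% pools at 1 week and the 20% pool at 1 month, with slopes of -0.43 to -0.56 and adjusted p of 0.0517 to 0.186. It was also lost on the arrays numbered 1 (-0.59, adjusted p = 0.12) or 2 (-0.47, adjusted p = 0.0874) alone, with the signals as deposited (-0.45, adjusted p = 0.803), with median centring (-0.58, adjusted p = 0.0862) and without a variance trend (-0.53, adjusted p = 0.0981). The 3′ over 5′ ratio of the Gapdh control probe sets, a measure of RNA intactness, was 1.51 and 1.52 in the control pools, 1.46 and 1.3 in the 30% pools and between 1.3 and 1.61 over all pools. With this ratio as a covariate the slope of Psma1 was -0.73 (adjusted p = 0.114).

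The other alpha subunits, which form the outer rings and the gate of the barrel, had slopes from -0.32 to -0.03 and none passed. Psma4 had signals of 7.75, 7.52, 7.43, 7.24 and 7.37 at 1 week and 7.49, 7.16, 7.28, 7.24 and 7.1 at 1 month, in the same order of levels. Each control pool was the highest of its duration. The slope of Psma4 was -0.32 ± 0.115 (limma adjusted p = 0.151) and its step was -0.33 ± 0.0949 (adjusted p = 0.0653).

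Among the beta subunits, Psmb5 carries the chymotrypsin-like and Psmb7 the trypsin-like cutting site. The signals of Psmb5 were 9.22, 8.74, 8.89, 8.93 and 8.71 at 1 week and 9.06, 9.08, 9.05, 8.98 and 8.9 at 1 month. At 1 week the control stood above the restricted pools, and at 1 month the 5% pool was slightly above its control. Its slope was -0.24 ± 0.108 (limma adjusted p = 0.246) and its step -0.23 ± 0.0953 (adjusted p = 0.204). Psmb7 had 8.61, 8.85, 8.58, 8.55 and 8.71 at 1 week and 8.68, 8.5, 8.66, 8.63 and 8.56 at 1 month, with no order by level and a slope of -0.04 ± 0.0996. Psmb3 and Psmb4 are structural subunits of the beta ring. Psmb3 had 8.89, 8.85, 8.69, 8.67 and 8.71 at 1 week and 8.93, 8.73, 8.79, 8.73 and 8.68 at 1 month, with a slope of -0.19 ± 0.0804 (adjusted p = 0.211) and a step of -0.18 ± 0.0738 (adjusted p = 0.203). Psmb4 had 8.94, 8.79, 8.76, 8.76 and 8.67 at 1 week and 8.9, 8.9, 8.8, 8.84 and 8.82 at 1 month, with a slope of -0.15 ± 0.0751 (adjusted p = 0.317). In both genes the control was the highest or joint highest pool of each duration.

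Of the 19S probe sets 0 of 18 passed in the dose trend (limma, adjusted p), with 6 (33.3%) at an unadjusted p under 0.05, all lower, against 9.57% of all probe sets that were lower at that p. In the base, whose ATPases unfold the substrate, Psmc2 had signals of 8.59, 8.67, 8.65, 8.06 and 8.32 at 1 week and 8.51, 8.46, 8.26, 8.29 and 8.15 at 1 month. At 1 week its drop lay between 10 and 20%, and at 1 month the pools declined more evenly. The slope of Psmc2 was -0.4 ± 0.121 (adjusted p = 0.0904). Psmc4 had 8.02, 8.05, 7.87, 7.89 and 7.97 at 1 week and 8.05, 7.86, 7.86, 7.9 and 7.78 at 1 month, with a slope of -0.13 ± 0.0913 (adjusted p = 0.485). Psmc1 had 7.69, 7.5, 7.33, 7.41 and 7.48 at 1 week and 7.61, 7.23, 7.34, 7.45 and 7.5 at 1 month. In Psmc1 the lowest pools were those at 5 or 10%, so its step (-0.24 ± 0.0934, adjusted p = 0.168) was larger than its slope (-0.052 ± 0.127, adjusted p = 0.879). Psmc3 and Psmc5 had slopes above 0, of 0.11 and 0.069.

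Psmd1, the large scaffold subunit of the base, had signals of 6.76, 6.47, 6.45, 6.11 and 6.3 at 1 week and 6.7, 6.59, 6.47, 6.39 and 6.45 at 1 month. The controls were highest and the 20% pools lowest in both durations, and the slope was -0.36 ± 0.128 (limma adjusted p = 0.145). Psmd11, a lid subunit needed to assemble the 26S particle, was measured by 2 probe sets. One had 8.17, 7.96, 7.96, 7.64 and 7.55 at 1 week and 7.97, 7.6, 7.39, 7.68 and 7.51 at 1 month. The other had 7.81, 7.81, 7.68, 7.43 and 7.41 at 1 week and 7.73, 7.46, 7.49, 7.43 and 7.49 at 1 month. Both probe sets stepped down at every level at 1 week, apart from ties, and reached their low range by 5 or 10% at 1 month. Their slopes were -0.44 ± 0.137 (adjusted p = 0.097) and -0.32 ± 0.107 (adjusted p = 0.122), and their steps -0.41 ± 0.12 (adjusted p = 0.0718) and -0.25 ± 0.106 (adjusted p = 0.226).

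Psmd9 was the clearest 19S-associated change, as a step. Its signals were 6.49, 6.25, 5.9, 5.9 and 5.75 at 1 week and 6.61, 5.87, 5.85, 5.7 and 6 at 1 month. The 8 restricted pools all lay under the 2 control pools, and the 5% pool at 1 week was nearest to them. Restricted pools were lower by a difference of -0.65 ± 0.135 (SE, n = 10 pools), which is 1.57-fold (limma adjusted p = 0.017). The control mean was 6.55 and the restricted mean 5.9. Psmd9 did not pass in the dose trend (-0.56 ± 0.2, adjusted p = 0.147). The step rests on the control pools: without the 1 week control it was -0.76 (adjusted p = 0.0944) and without the 1 month control -0.54 (adjusted p = 0.26). With the signals as deposited it was -0.38 (adjusted p = 0.333), and it was not called on the arrays numbered 1 alone (-0.58, adjusted p = 0.102). The other assembly chaperones of the base, Psmd5 and Psmd10, had steps of -0.054 and 0.057.

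The activators Psme1 and Psme2, which form the PA28 cap and are induced by interferon, did not pass. Psme1 had signals of 9.09, 9.14, 9.03, 9.08 and 9.02 at 1 week and 9.17, 9.35, 9.16, 9.02 and 9 at 1 month, with a slope of -0.17 ± 0.0844 (limma adjusted p = 0.293). Psme2 had 7.81, 8.05, 7.61, 7.73 and 7.82 at 1 week and 8.1, 7.89, 7.71, 7.78 and 7.65 at 1 month, with a slope of -0.22 ± 0.128 (adjusted p = 0.388) and a step of -0.17 ± 0.119 (adjusted p = 0.473). Neither gene was ordered by level at 1 week. The 3 probe sets of Psme4, the PA200 activator, had slopes of 0.044 to 0.13. The immunoproteasome subunits that replace the cutting subunits of the core had steeper slopes, with Psmb8 at -0.7 ± 0.139 (adjusted p = 0.0201), Psmb9 at -0.71 ± 0.161 (adjusted p = 0.034) and Psmb10 at -0.4 ± 0.127 (adjusted p = 0.105). Whether these slopes differ from those of the constitutive subunits was not tested.

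Among the Ube2 enzymes 1 of 35 probe sets fell and 0 rose in the dose trend, where 1.96% of all probe sets fell and 1.8% rose. Ube2n had signals of 7.54, 7.43, 7.31, 7.05 and 7.01 at 1 week and 7.32, 7.07, 7, 6.88 and 6.81 at 1 month. At this probe set, the called one, the pools were ordered by level without exception in both durations. Each 1 month pool lay under the 1 week pool of its level. The slope was -0.51 ± 0.0975 (SE, n = 10 pools), a 1.42-fold lower signal over 30 percentage points (limma adjusted p = 0.017). The slope was -0.56 ± 0.141 at 1 week and -0.46 ± 0.141 at 1 month, and neither passed alone (adjusted p = 0.0873 and 0.284). A second probe set of Ube2n had a slope of -0.73 ± 0.306 (adjusted p = 0.221). Its signals were not ordered by level, with 5.5, 4.38, 4.48, 4.84 and 4.15 at 1 week and 4.79, 4.78, 5.41, 4.62 and 4.24 at 1 month. The call of the first probe set was lost without the 1 week control (-0.48, adjusted p = 0.0588), the 30% pool at 1 week (-0.53, adjusted p = 0.0747) or the 1 month control (-0.46, adjusted p = 0.0726). It was also lost with median centring (-0.55, adjusted p = 0.0578), with the signals as deposited (-0.41, adjusted p = 0.822), on the arrays numbered 2 alone (-0.53, adjusted p = 0.0925) and with the Gapdh ratio as a covariate (-0.53, adjusted p = 0.15).

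Ube2d1, a conjugating enzyme that serves many ligases, was higher in restricted pools. Its signals were 2.96, 3.86, 4.09, 4.74 and 4.87 at 1 week and 2.62, 4.31, 5.02, 4.86 and 4.16 at 1 month. Both control pools were below 3.54, the lowest mean log2 signal tested, and all 8 restricted pools were above it. The probe set thus reached the tested range through its restricted pools, and its fitted differences depend on control signals that are only bounded. The fitted step was 1.7 ± 0.315 (n = 10 pools, limma adjusted p = 0.0102), and without the signal filter its adjusted p was 0.0165. With pools under 3.54 raised to that value, the restricted mean was at least 1.93-fold higher. Its second probe set had a step of 1.16 ± 0.356 (adjusted p = 0.0842) with 4 pools under that level. With those pools raised in the same way, the second probe set was 1.37-fold higher in restricted pools. The step of the first probe set did not pass without the 1 week control (1.97, adjusted p = 0.0566), without the 1 month control (1.43, adjusted p = 0.183) or on the arrays numbered 2 alone (1.48, adjusted p = 0.0718).

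Ube2q2 was also higher in restricted pools, with signals of 5.48, 5.59, 6.12, 5.97 and 6.11 at 1 week and 5.42, 6.08, 6.07, 6.15 and 6.08 at 1 month. The 5% pool at 1 week stayed near the controls, and the other restricted pools lay together about a level of 6. Its step was 0.57 ± 0.137, a 1.48-fold rise (n = 10 pools, limma adjusted p = 0.0299). It did not pass without either control pool, at 0.67 (adjusted p = 0.133) for 1 week and 0.47 (adjusted p = 0.345) for 1 month. It was also lost without the 10% pool at 1 week (0.55, adjusted p = 0.0501) or at 1 month (0.57, adjusted p = 0.0533), and without the 20% pool at 1 week (0.57, adjusted p = 0.0524) or at 1 month (0.56, adjusted p = 0.0569). The arrays numbered 1 (0.55, adjusted p = 0.154) or 2 (0.59, adjusted p = 0.0558) alone, median centring (0.61, adjusted p = 0.064), a fit without a variance trend (0.57, adjusted p = 0.0624) and the Gapdh ratio as a covariate (0.57, adjusted p = 0.0578) did not keep the call either.

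In the restriction step as a whole, 1 of the 73 member probe sets fell and 2 rose, where 2.11% of all probe sets fell and 3.16% rose. At an unadjusted p under 0.05 there were 21 members (28.8%), 16 lower (21.9%) and 5 higher (6.85%), against 18.9% of all probe sets, 8.14% lower and 10.7% higher. The 20S probe sets had a median step of -0.13 and those of the 19S particle one of -0.14, with 13 of 13 and 14 of 18 below 0, against 49.7% of all probe sets. The Ube2 median was -0.012. The dose trend and the step use the same pools, so they are not separate evidence.

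**Figure D2:**
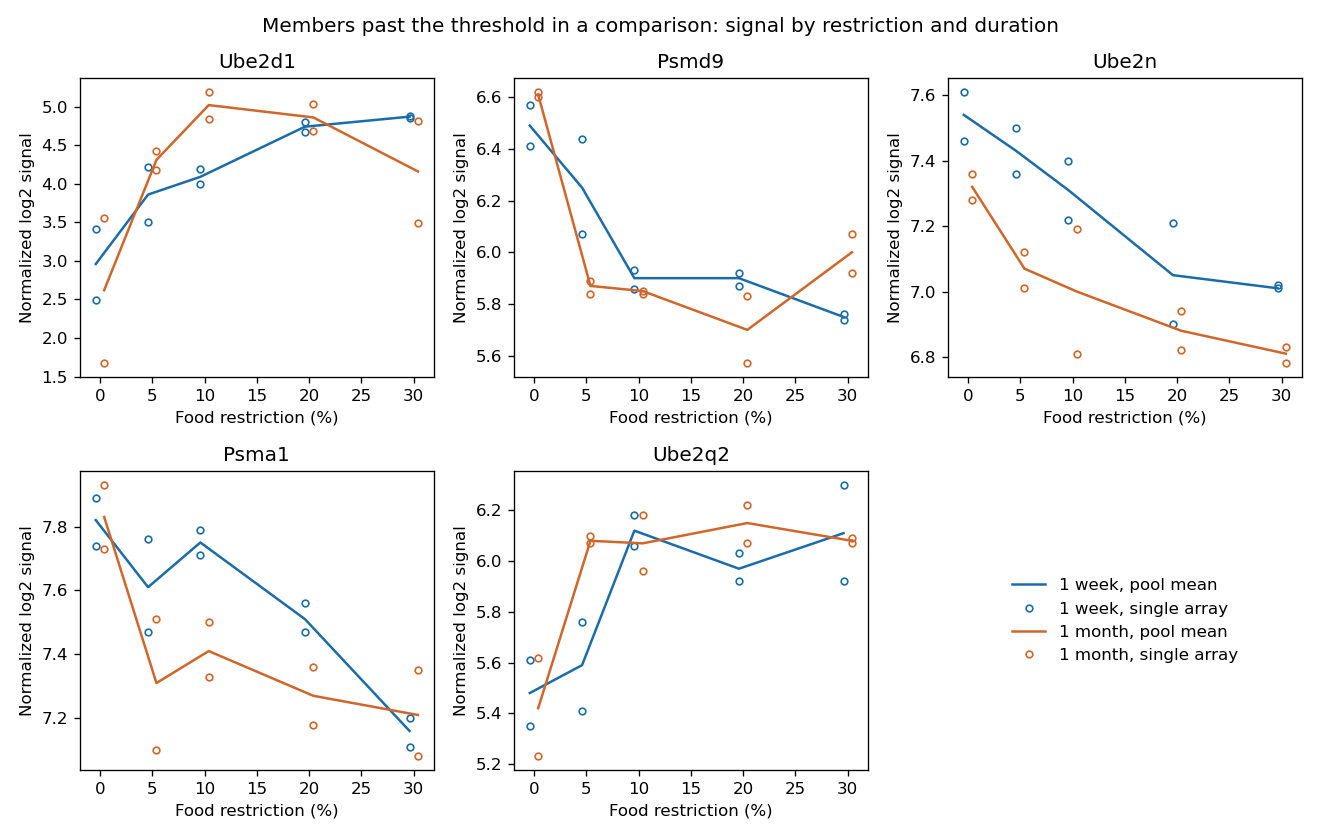
Normalized log2 signal (vertical axis) against food restriction in percent (horizontal axis) for the 5 members past the threshold in a comparison, with open circles for single arrays and lines through the means of each pool's 2 arrays, in blue for 1 week and orange for 1 month. Ube2n and Psma1 decline from the controls to 30%, Psmd9 drops and Ube2q2 and Ube2d1 climb between the controls and the restricted pools, and arrays of one pool differ most at the low signals of Ube2d1.

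Ube2c, which acts with the anaphase-promoting complex in mitosis, had low signals of 4.49, 4.52, 3.97, 4.1 and 4.1 at 1 week and 4.71, 4.05, 3.82, 3.35 and 3.34 at 1 month. Its 20 and 30% pools at 1 month lay under 3.54, and its slope was -0.85 ± 0.286 (limma adjusted p = 0.125). Ube2l6, the interferon-induced enzyme of Isg15 conjugation, had a slope of -0.35 ± 0.137 (adjusted p = 0.186). Ube2m, the Nedd8 conjugating enzyme, had one of -0.23, and Ube2g1 and Ube2g2, the second of which works in degradation of proteins from the endoplasmic reticulum, had slopes of 0.31 (0.2 at a second probe set) and 0.24. None of these passed.

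The 250 bases upstream of the start of each called gene are shown because these 5 genes carry the changes described above. They are from RefSeq on GRCr8, 5′ to 3′ on the gene's strand, and capitals mark letters searched on both strands: TGACNNNGC, the core of the antioxidant response element bound by Nrf1 and Nrf2, the CCAAT box, and CCGGAA for ETS factors. TATAAA was searched too. The stretches are Psma1 at chr1:177887858-177888107 (minus strand), Psmd9 at chr12:39018265-39018514 (minus), Ube2n at chr7:32040959-32041208 (plus), Ube2q2 at chr8:64414824-64415073 (plus) and Ube2d1 at chr20:17308209-17308458 (plus).
Psma1: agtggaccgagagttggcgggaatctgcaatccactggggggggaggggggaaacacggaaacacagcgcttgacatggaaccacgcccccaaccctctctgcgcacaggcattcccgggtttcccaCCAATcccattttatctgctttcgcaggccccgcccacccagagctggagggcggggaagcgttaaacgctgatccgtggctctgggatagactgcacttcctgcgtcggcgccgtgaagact
Psmd9: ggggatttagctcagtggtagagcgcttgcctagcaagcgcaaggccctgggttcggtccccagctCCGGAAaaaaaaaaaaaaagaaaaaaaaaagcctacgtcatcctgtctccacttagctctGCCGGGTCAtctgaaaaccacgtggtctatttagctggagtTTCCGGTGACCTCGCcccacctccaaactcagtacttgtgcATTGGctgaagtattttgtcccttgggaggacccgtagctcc
Ube2n: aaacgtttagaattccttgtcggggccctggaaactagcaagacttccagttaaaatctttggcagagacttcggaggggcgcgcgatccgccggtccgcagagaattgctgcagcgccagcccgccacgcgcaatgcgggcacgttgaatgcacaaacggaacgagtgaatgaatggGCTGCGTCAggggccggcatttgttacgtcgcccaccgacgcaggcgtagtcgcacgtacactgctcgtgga
Ube2q2: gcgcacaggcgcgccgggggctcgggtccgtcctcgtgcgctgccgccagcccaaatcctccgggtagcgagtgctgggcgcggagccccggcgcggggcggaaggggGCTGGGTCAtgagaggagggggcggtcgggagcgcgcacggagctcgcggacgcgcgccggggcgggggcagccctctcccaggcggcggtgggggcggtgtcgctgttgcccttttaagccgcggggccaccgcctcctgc
Ube2d1: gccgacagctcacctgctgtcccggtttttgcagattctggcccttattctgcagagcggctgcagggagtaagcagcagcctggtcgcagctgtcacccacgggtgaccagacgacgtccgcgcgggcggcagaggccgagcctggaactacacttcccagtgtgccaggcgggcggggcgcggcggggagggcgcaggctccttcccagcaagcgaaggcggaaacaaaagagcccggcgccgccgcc

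Psma1 held a CCAAT box at 123 to 119 bases before its start. Psmd9 held TGACNNNGC at 124 to 116 (reverse strand) and at 77 to 69. It also held CCGGAA at 184 to 179 and at 83 to 78 (reverse strand), and a CCAAT box at 42 to 38 (reverse strand). The ETS letters at 83 to 78 lay next to the element at 77. Ube2n held TGACNNNGC at 72 to 64 and Ube2q2 at 142 to 134, both on the reverse strand, and Ube2d1 held none of these letters. The element was thus present in a gene that fell with dose, in one that was lower in the step and in one that was higher. Among 31 of the 33 subunit and activator genes that matched the promoter table, 19.4% held TGACNNNGC, 51.6% CCAAT, 45.2% CCGGAA and 12.9% TATAAA. Among 23 of 27 Ube2 genes the shares were 26.1%, 34.8%, 21.7% and 8.7%. Over all 27457 promoters they were 10.2%, 34.3%, 13.4% and 13.1%. Of 12 matched 20S genes 9 held a CCAAT box, and of 16 matched 19S genes 10 held CCGGAA. The searched letters were chosen with the member values known, and a match is a description of the window.

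By level against the control pools, 0 of the 73 probe sets passed at 5% and 0 at 10% (limma, adjusted p), where 0.452% and 2.18% of all probe sets passed. At an unadjusted p under 0.05 there were 6 members (8.22%) at 5% and 15 (20.5%) at 10%, against 9.83% and 14.1% of all probe sets. At 20% Psmd9 was lower (-0.75 ± 0.175, adjusted p = 0.0437) and Ube2d1 higher by at least 2.39-fold against controls raised to 3.54 (fitted difference 2.01 ± 0.396, adjusted p = 0.0234, and 0.0367 without the signal filter), where 1.64% of all probe sets were lower and 2.16% higher. At 30% Psma1 (-0.64 ± 0.135, adjusted p = 0.0272) and Ube2n (-0.52 ± 0.118, adjusted p = 0.0357) were lower and Ube2d1 was higher by at least 1.96-fold (fitted difference 1.72 ± 0.396, adjusted p = 0.0376), against 2.08% lower and 2.45% higher. Without the signal filter the 30% call of Ube2d1 was lost (adjusted p = 0.0619). The second probe set of Ube2d1 did not pass at 20 or 30%, and was 1.36-fold and 1.38-fold higher with pools under 3.54 raised to it. Each level holds 1 pool for each duration, and all levels share the same control pools. Leaving out either control pool removed all calls at 20 and 30%.

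The median difference of the 20S probe sets from the control pool of the same duration was already below 0 at the mildest restriction and did not widen steadily. It was -0.066, -0.19, -0.18 and -0.19 at 5, 10, 20 and 30% for 1 week, and -0.18, -0.1, -0.18 and -0.16 for 1 month. For the 19S probe sets it was -0.046, -0.14, -0.24 and -0.14 at 1 week and -0.19, -0.2, -0.16 and -0.14 at 1 month. The Ube2 medians were 0.016, 0.079, 0.085 and -0.014 at 1 week and -0.027, 0.074, -0.1 and -0.16 at 1 month. The medians of all tested probe sets lay between 0 and 0.01 in these comparisons. All differences within a duration use the same control pool, so they are not separate observations.

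A rule of size was applied to each restricted pool, a log2 difference of at least 1 from its control with no overlap between the arrays of the pools. At 1 week it took 1, 2, 1 and 3 of the 73 member probe sets at 5, 10, 20 and 30%, where it took 3.78, 3.62, 4.93 and 5.87% of all tested probe sets. At 1 month it took 3, 2, 3 and 2, against 5.62, 5.96, 4.72 and 4.96%. All of these were Ube2 probe sets: Ube2d1 in 7 of the 8 pools, higher in each but against controls under 3.54, the second probe set of Ube2n at 5 and 30% for 1 week, Ube2o at 30% for 1 week, Ube2c at 20 and 30% for 1 month, and Ube2d2 at 5% for 1 month. No proteasome subunit differed from control by this rule in any pool.

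**Figure D3:**
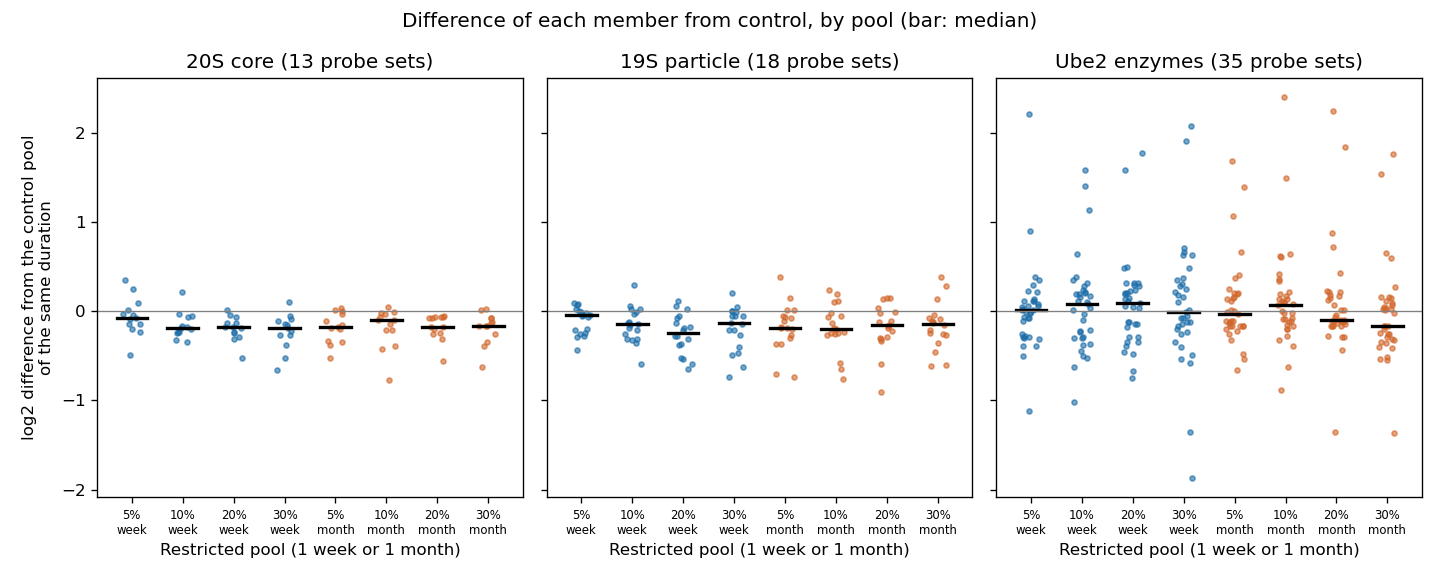
Difference in normalized log2 signal from the control pool of the same duration (vertical axis) for each tested probe set of the 20S core, the 19S particle and the Ube2 enzymes (points), in each of the 8 restricted pools (horizontal axis, 1 week in blue and 1 month in orange), with black bars at the medians. The 20S medians lie between -0.19 and -0.066 in all 8 pools, and the points far from 0 are Ube2 enzymes. Pools of the same duration share their control pool.

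The separate slopes called 0 members at 1 week and 0 at 1 month (limma, adjusted p), while 0.714% and 0.0315% of all probe sets passed. At an unadjusted p under 0.05 there were 17 members (23.3%) at 1 week and 5 (6.85%) at 1 month, against 15.9% and 10.5% of all probe sets. The 20S median slope was -0.2 at 1 week, with 13 of 13 below 0, and -0.08 at 1 month, with 11 of 13. The difference between the slopes passed for 0 members, as for 0% of all probe sets, with 4 members (5.48%) at an unadjusted p under 0.05, against 5.51% of all probe sets. Ube2o, a large enzyme that joins conjugating and ligase activity, had the smallest p, with signals of 4.93, 4.62, 4.63, 4.18 and 3.05 at 1 week and 4.58, 4.04, 4.66, 4.71 and 4.26 at 1 month. Its 30% pool at 1 week was the lowest, and its slope at 1 month was higher by 1.72 ± 0.526 (adjusted p = 0.903). One probe set of Ube2g1 had 7.59, 7.65, 7.91, 7.91 and 8.23 at 1 week and 7.56, 7.75, 7.74, 7.73 and 7.63 at 1 month, a slope difference of -0.58 ± 0.198 (adjusted p = 0.903). It climbed through the levels at 1 week and stayed within 0.2 log2 units at 1 month.

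Between the durations 0 members passed for 1 month against 1 week (limma, adjusted p), and 0.336% of all probe sets passed. At an unadjusted p under 0.05 there were 5 members (6.85%), against 10.7% of all probe sets. The smallest p were those of Ube2n, at -0.26 ± 0.07 (adjusted p = 0.183), and of Ube2g2. The second probe set of Ube2n had 0.1 ± 0.22 (adjusted p = 0.908). Ube2g2 had signals of 5.45, 5.19, 5.15, 5.57 and 5.82 at 1 week and 5.78, 5.79, 5.85, 5.66 and 5.79 at 1 month, a difference of 0.34 ± 0.119 (adjusted p = 0.312). The 1 week pools at 0 to 20% lay under all 1 month pools, and the 30% pool at 1 week did not. Duration, age and any processing batch change together and cannot be told apart.

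Other genes of the ubiquitin route and of ubiquitin-like modifiers were looked at too. Their calls stand beside 1.96% of all probe sets lower and 1.8% higher in the dose trend, and 2.11% and 3.16% in the step. The median dose slope was -0.29 for the p97 list, -0.21 for activating enzymes and -0.17 for ubiquitin-like modifiers. It was -0.039 for assembly factors and inhibitors and 0.061 for receptors and deubiquitinases, beside -0.12 for the 20S and -0.15 for the 19S probe sets. The median step was -0.19, 0.00054, -0.16, -0.043 and 0.034 for these 5 lists in the same order. The lists were not tested against each other. The unadjusted counts that follow stand beside 19% of all probe sets in the dose trend and 18.9% in the step. Of 7 probe sets for activating enzymes of ubiquitin or ubiquitin-like modifiers, 0 passed in the dose trend or the step (limma, adjusted p). At an unadjusted p under 0.05 there were 2 in the dose trend, 1 lower and 1 higher, and 1 in the step, which was lower. In the dose trend these were Uba1, the main ubiquitin E1, at -0.31 ± 0.0912 (adjusted p = 0.0801), and Uba2 at 0.34 ± 0.112 (adjusted p = 0.115). Of 6 for assembly factors and inhibitors outside the member list 0 passed and 0 had an unadjusted p under 0.05 in either comparison. The chaperones Psmd5, Psmd9 and Psmd10 are not among them and were counted with the 19S probe sets. Of 7 for receptors and deubiquitinases at the proteasome 0 passed, with 2 and 1 at an unadjusted p under 0.05, all of them higher. Of 5 for ubiquitin-like modifiers 0 passed, with 2 and 1, and Nedd8 had a slope of -0.23 ± 0.0703 (adjusted p = 0.0931). Of 9 for the p97 segregase, which pulls ubiquitinated proteins out of membranes and complexes, 0 passed in the dose trend and 1 fell in the step, with 4 and 3 at an unadjusted p under 0.05. The one that fell was Ubxn4, an anchor of p97 at the endoplasmic reticulum, with signals of 8.84, 8.59, 8.32, 8.33 and 8.25 at 1 week and 8.8, 8.31, 8.24, 8.18 and 8.18 at 1 month, all restricted pools under both controls (-0.52 ± 0.092, adjusted p = 0.00871). Vcp, p97 itself, had a slope of -0.3 ± 0.0782 (adjusted p = 0.0528).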

How the data were processed

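Liver RNA was hybridised to 20 Affymetrix rat arrays. The authors deposited 1 linear intensity per probe set, from MAS5 per the submitters' processing notes (version and scaling target: not given in the sources used here). Over the arrays the 2% trimmed mean ran from 38.4 to 98.8 units, so they were not on one scale. Here 32 zeros were set to the array's smallest positive value, signals were turned to log2 and quantile normalized, and 57 control probe sets were left out. The upper 60% of 15866 probe sets by mean were tested (9520, lowest mean 11.7 units, 3.54 in log2). The 2 arrays of a pool were averaged. The two-sided tests came from lmFit and eBayes with a trend (limma 3.58.1, R 4.3.3), Benjamini-Hochberg over all probe sets, threshold 0.05, and were tested on simulated data. Each condition has 1 pool, so p-values rest on departures from the model and do not measure the spread between rats. The number of arrays limits the precision. Gene names came from the platform's annotation, with gene identifiers of the GRCr8 table (0 symbols changed). Members, gene lists and alternatives were chosen with earlier results of these data known. Genes named were those past the threshold, the 2 smallest p of the dose trend and the smallest of the step in each subunit list and for the Ube2 enzymes, and the 2 smallest for duration and slope difference, with a few others of known role named after their values were seen.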

Additional observations from a re-analysis of the deposited data

How the results depend on the processing

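Calls among the members were few and depended on the setting. In the dose trend 2 were called as reported, 0 with the signals as deposited, 0 with median centring, 1 without a variance trend, 0 with the Gapdh ratio as a covariate and 0 to 3 when a pool or an array of each pool was left out. The step gave 3 calls and 0 to 9 when pools or arrays were left out, with 0 without the 1 week control, 1 without the 1 month control and 9 without the 5% pool at 1 week. Levels of 5 and 10% gave 0 as reported, and 1 and 3 with the signals as deposited. At 10% median centring gave 1 and leaving out pools 0 to 3. At 20% (2 calls) median centring gave 1, no signal filter 1, no variance trend 0, and leaving out pools 0 to 3. At 30% (3 calls) the signals as deposited gave 1, median centring 1, no variance trend 0, the Gapdh ratio 0, and leaving out pools 0 to 5. The 1 week slope (0 calls) gave 0 to 6 when pools were left out, with 6 without the 1 month control. A fit of the 20 arrays with the array number as a replicate block and the pool as a random block gave 8 calls in the dose trend, 11 in the step, 5, 9 and 9 at 10, 20 and 30%, and 6 for the 1 week slope. It counts arrays of 1 RNA as partly separate, and the numbers mark no shared batch: deviations of arrays numbered alike correlated at -0.0473 to 0.121 between pools. Calls for duration, the 1 month slope and the slope difference were 0 under every setting run.

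Signs of named members turned in 5 values. With the signals as deposited, where the median of all probe sets was 0.11 in the dose trend and 0.25 in the step, Psmb7 had a dose slope of 0.029 (-0.04 as reported), and Psmb3, Psmc1 and Psme2 had steps of 0.026, 0.022 and 0.073 (-0.18, -0.24 and -0.17 as reported). Leaving out pools gave Psmb7 slopes of -0.1 to 0.011, the latter without the 5% pool at 1 week. Of 680 values of single members under other settings, 570 kept sign and side of the threshold, 92 lost a call and 13 gained one. Ube2d1 lies outside the upper 40% by signal and has no value there, and Ube2t was called lower in the step only without the signal filter. Low signals limit Ube2d1, Ube2c and Ube2o, which have pools under the lowest mean signal tested.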

Other observations

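Ubiquitin ligases (E3), which choose the protein to be marked, were looked at on a list of 29 genes, 26 of them on the array and 21 bright enough to be tested. Of their 27 probe sets 0 passed in the dose trend and 0 in the restriction step (limma, adjusted p). Over all probe sets 1.96% fell and 1.8% rose in the dose trend, and 2.11% and 3.16% did in the step. At an unadjusted p under 0.05 there were 8 (29.6%) and 2 (7.41%), against 19% and 18.9% of all probe sets. The median slope was 0.081 on the log2 scale over 30 percentage points, against 0.0034 for all probe sets. Rnf4, a ligase for SUMO-modified proteins, had slopes of 0.25, 0.3 and 0.47 at its 3 probe sets, and Ubr2, of the N-degron route, had 0.32 ± 0.109 (adjusted p = 0.127) and 0.084 ± 0.346. Syvn1, a ligase of degradation from the endoplasmic reticulum, had -0.32 ± 0.107 (adjusted p = 0.125). Fbxo32 and Trim63, the ligases known from wasting muscle, lay under the signal filter.

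Of 9 probe sets for transcription factors of proteasome genes 0 passed in the dose trend and 1 in the step (limma, adjusted p). Over all probe sets 1.96% fell and 1.8% rose in the dose trend, and 2.11% fell and 3.16% rose in the step. Nfe2l1, Nfe2l2, Foxo1 and Foxo3 were not called in either comparison. Stat3 fell in the step at 1 probe set (-0.58 ± 0.148, limma adjusted p = 0.0407), and a second one had -0.39 ± 0.15 (adjusted p = 0.172). Its signals were 7.56, 7.38, 6.86, 7.02 and 7.25 at 0, 5, 10, 20 and 30% for 1 week and 7.83, 7.24, 7.33, 6.98 and 6.9 for 1 month, with both controls above all restricted pools. Nfe2l1, which drives proteasome genes when the proteasome is inhibited, had slopes of 0.052, 0.58 and -0.14 at 3 probe sets, which thus disagree, and 0 passed. Nfe2l2 had a slope of -0.38 ± 0.142 (adjusted p = 0.17).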
